A study of Homo sapiens with 18 samples.

Results

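The genes described are 9 components of MHC class I antigen presentation, chosen by name: HLA-B, HLA-C, HLA-E, HLA-F, B2M, TAP1, TAP2, TAPBP and NLRC5, out of 58884 genes counted. Their RNA was measured in T47D, a luminal breast cancer line that carries the estrogen receptor, treated for 48 hours with DMSO (the vehicle), niraparib at 10 μM or olaparib at 10 μM. Niraparib and olaparib are PARP inhibitors. Each treatment was given to cells labelled WT (T47D AAV) and to cells labelled PARP1 KO (T47D JL), with 3 libraries in each of the 6 groups and 18 in all. Each genotype was 1 line, so the knockout and the line that carries it cannot be told apart. The labels do not say whether the libraries of a group came from separate cultures, and P values measure the spread between these libraries, which may be technical.

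MHC class I molecules display short peptides from inside the cell to CD8 T cells. The heavy chains HLA-B and HLA-C are classical presenters, HLA-E displays leader peptides to natural killer cell receptors, and HLA-F is a further non-classical heavy chain. All pair with β2-microglobulin, the product of B2M. Peptides made by the proteasome enter the endoplasmic reticulum through the transporter of TAP1 and TAP2, and tapasin, the product of TAPBP, bridges that transporter to the empty heavy chain. NLRC5 is a transactivator that acts on class I promoters together with the RFX proteins, NF-Y and CREB or ATF1, while interferon acts on many of the same genes through STAT and IRF factors.

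Of the 9 genes, 7 lie in the MHC of chromosome 6 (GRCh38, Ensembl release 96, as in the count files). HLA-F (ENSG00000204642) spans chr6:29722775-29738528 and HLA-E (ENSG00000204592) chr6:30489509-30494194, both on the plus strand. On the minus strand are HLA-C (ENSG00000204525, chr6:31268749-31272130), HLA-B (ENSG00000234745, chr6:31269491-31357188), TAP2 (ENSG00000204267, chr6:32821833-32838770), TAP1 (ENSG00000168394, chr6:32845209-32853978) and TAPBP (ENSG00000231925, chr6:33299694-33314387). B2M (ENSG00000166710) spans chr15:44711487-44718877 and NLRC5 (ENSG00000140853) chr16:56989485-57083531, both on the plus strand. The values below are sums over the annotated exons of each gene, UTRs included.

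The promoters of 5 of the genes, HLA-B, HLA-C, B2M, TAP1 and TAPBP, are shown for the regulatory letters they share or lack. Each is the run of 250 bases before the RefSeq start of transcription (GRCh38.p14), 5′ to 3′ on the strand of the gene. Capitals mark matches on either strand to CCAAT (the core of the box bound by NF-Y), TGACG (the core letters bound by CREB and ATF factors), GAAANNGAA (a short form of the element bound by IRF and STAT complexes) or the κB site. Where matches overlap they form 1 run of capitals.
HLA-B (chr6:31357180-31357429, - strand): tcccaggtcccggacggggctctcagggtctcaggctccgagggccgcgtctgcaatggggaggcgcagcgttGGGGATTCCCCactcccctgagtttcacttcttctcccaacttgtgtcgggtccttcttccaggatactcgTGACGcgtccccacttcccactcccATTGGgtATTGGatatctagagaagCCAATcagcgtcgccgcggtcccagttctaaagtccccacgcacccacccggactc
HLA-C (chr6:31272093-31272342, - strand): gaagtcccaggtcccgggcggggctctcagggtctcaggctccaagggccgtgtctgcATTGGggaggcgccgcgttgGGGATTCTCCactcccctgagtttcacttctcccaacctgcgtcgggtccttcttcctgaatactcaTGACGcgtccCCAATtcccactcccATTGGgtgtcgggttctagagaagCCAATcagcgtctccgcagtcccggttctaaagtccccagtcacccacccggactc
B2M (chr15:44711267-44711516, + strand): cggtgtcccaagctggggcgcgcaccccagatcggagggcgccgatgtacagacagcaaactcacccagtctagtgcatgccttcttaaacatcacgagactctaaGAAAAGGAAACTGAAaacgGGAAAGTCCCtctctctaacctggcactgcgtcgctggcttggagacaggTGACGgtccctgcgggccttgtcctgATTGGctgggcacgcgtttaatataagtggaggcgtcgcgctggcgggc
TAP1 (chr6:32853705-32853954, - strand): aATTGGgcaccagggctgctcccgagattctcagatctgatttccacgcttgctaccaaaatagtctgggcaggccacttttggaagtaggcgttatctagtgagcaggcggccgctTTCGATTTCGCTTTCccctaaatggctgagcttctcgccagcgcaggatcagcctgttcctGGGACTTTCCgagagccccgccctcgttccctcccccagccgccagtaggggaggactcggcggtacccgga
TAPBP (chr6:33314079-33314328, - strand): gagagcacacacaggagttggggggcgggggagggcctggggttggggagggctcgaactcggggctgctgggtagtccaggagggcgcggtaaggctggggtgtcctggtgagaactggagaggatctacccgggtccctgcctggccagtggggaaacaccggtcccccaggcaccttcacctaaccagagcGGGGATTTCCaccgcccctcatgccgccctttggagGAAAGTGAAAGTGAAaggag

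RefSeq windows were matched for 7 of the 9 genes, and not for HLA-E and NLRC5. The TAP1 window shown is the first of 2 entries. CCAAT was found in 5 of the 7 (HLA-B, HLA-C, HLA-F, B2M and TAP1) and in 32.0% of all 35116 windows of this length. GAAANNGAA was found in 5 of 7 (HLA-F, B2M, TAP1, TAP2 and TAPBP) against 6.88% of all windows, and TAPBP, B2M and TAP1 each held 2 overlapping copies. The HLA-B and HLA-C windows held no GAAANNGAA, which says only that these letters are not in them. Both held tttcacttc, left in lower case, which on the other strand reads GAA, a gap and then GAAA. That order of the parts was not searched for, so the windows are not shown to lack an element of this kind. TGACG was found in 4 of 7 against 21.2%, and the κB site in 5 of 7 against 5.21%. The match is a description of the letters and not of binding.

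The libraries held between 28890837 and 52251288 counts. PARP1 was at 22.9 to 27.6 counts-per-million (CPM) in the 9 PARP1 KO libraries and at 291 to 373 CPM in the 9 WT libraries, with no overlap. All 8 luminal markers (ESR1, PGR, GATA3, FOXA1, KRT8, KRT18, KRT19 and EPCAM) were at 112 CPM or more in every library. Of 5 leukocyte markers, PTPRC, CD3E, LYZ and ITGAM were each below 0.297 CPM throughout and at 0 in at least 1 library. CD14 was at 0.533 CPM or less. Of 4 fibroblast markers, COL1A1 was at 88.3 to 153 CPM and the other 3 were below 0.852 CPM.

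In WT cells with DMSO, HLA-B was the most abundant of the 9 per base of annotated exon, at 627 ± 84 transcripts-per-million (TPM; SD, n = 3). HLA-C followed at 303 ± 31 TPM, HLA-E at 250 ± 17, B2M at 249 ± 17, TAPBP at 184 ± 5.1 and TAP1 at 88.8 ± 5.1. TAP2 (7.69 ± 0.18 TPM), HLA-F (5.19 ± 1.5) and NLRC5 (1.29 ± 0.16) were far lower. In this order the neighbours HLA-E and B2M overlapped between their libraries, and no other neighbours did. The order depends on the length used, since the annotated exons of B2M sum to 6079 bases and its reference transcript holds 943. Per kilobase of the reference transcript (GENCODE 44), B2M came first at 429 ± 28 CPM per kilobase, ahead of HLA-B at 332 ± 42. By the same measure HLA-F (4.04 ± 1.1) came ahead of TAP2 (2.32 ± 0.075).

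Class I genes resemble each other, and reads can be placed on the wrong one. Of all 50-base windows of the reference transcript, 2.56% for HLA-B, 6.76% for HLA-C, 6.16% for HLA-E and 1.89% for HLA-F also occurred in transcripts of other genes. For B2M and NLRC5 the share was 0%, for TAPBP 7.09% and for TAP1 1.18%. TAP2 is the uncertain member, with 35.3% of windows shared and 32.2% of its exon bases inside an overlapping gene annotated on the same strand. These shares refer to the reference alleles and not to the HLA alleles of T47D, which were not analysed here.

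**Figure D1:**
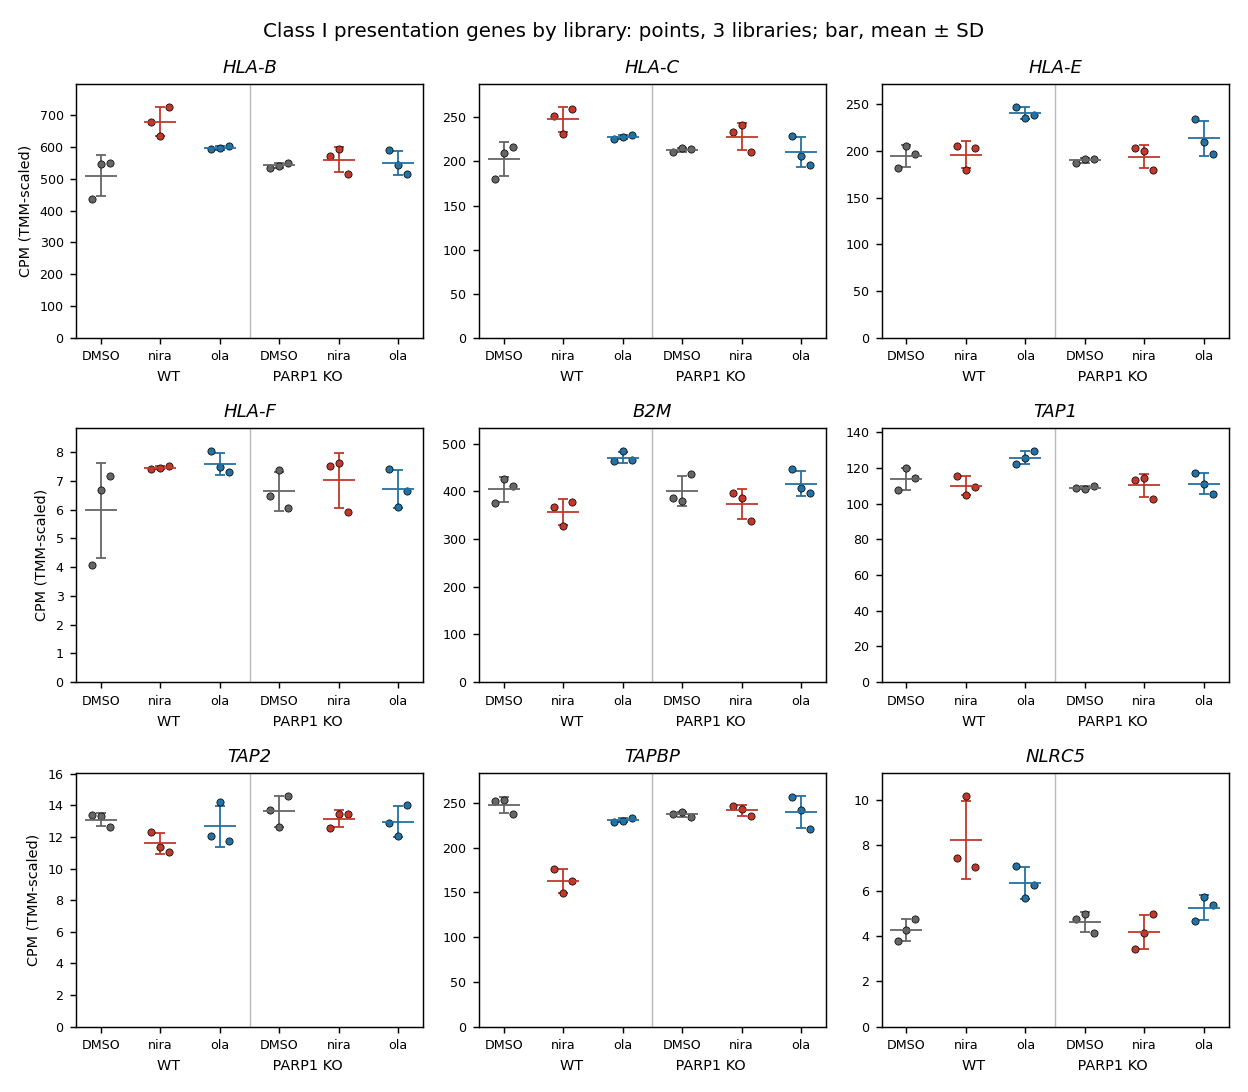
CPM of each of the 9 genes (vertical axis, from 0) in each of the 18 libraries, grouped by genotype and treatment. Points are libraries and bars are the mean ± SD of 3. In WT cells TAPBP is lower and NLRC5 higher in all 3 niraparib libraries than in the DMSO libraries, and in PARP1 KO cells the groups overlap for both.

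The first comparison asked what niraparib does to these genes in WT cells. A gene was called where its adjusted P value was below 0.05 over all genes tested and it changed by more than 1.5-fold. NLRC5 was called higher and TAPBP lower, 2 of the 9, against 13.8% of all 22446 genes tested (edgeR). At an adjusted P value below 0.05 alone, HLA-B and HLA-C rose with NLRC5, and B2M fell with TAPBP, 5 of the 9 against 38.0% of all genes. HLA-E, HLA-F, TAP1 and TAP2 did not pass. In 6 of the 9 genes the libraries of the 2 groups did not overlap, against 46.7% of all genes. The median log2 fold change of the 9 was 0.0064, beside -0.025 for all genes.

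NLRC5 was at 3.77, 4.25 and 4.74 CPM in the WT DMSO libraries and at 7.44, 10.2 and 7.06 CPM with niraparib. The groups did not overlap, and the second niraparib library was the highest of all 18. The log2 fold change was 0.95 (SE 0.14, adjusted P = 1.2e-05, edgeR). Without that library it was 0.76 and still called. NLRC5 was the least abundant member, with 113 to 219 reads in the DMSO libraries and 250 to 565 with niraparib.

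TAPBP was at 252, 254 and 237 CPM with DMSO and at 176, 149 and 163 CPM with niraparib. Every niraparib library lay below every other library of the 18. The log2 fold change was -0.61 (SE 0.06, adjusted P = 1.1e-08, edgeR), which is a fold of 0.657. This is close to the limit of 1.5-fold, and the call was lost without niraparib replicate 2 (log2 fold change -0.55) or without DMSO replicate 2 (-0.58), with adjusted P values of 1.6e-09 and 3.2e-07.

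The classical heavy chains HLA-B and HLA-C moved the other way. HLA-B was at 435, 545 and 549 CPM with DMSO and at 678, 635 and 727 with niraparib, a log2 fold change of 0.41 (SE 0.08, adjusted P = 7.0e-04, edgeR). HLA-C was at 180, 210 and 217 CPM with DMSO and at 252, 232 and 260 with niraparib, at 0.29 (SE 0.06, adjusted P = 5.8e-04). Neither overlapped between the groups. DMSO replicate 1 was the lowest of its group in 7 of the 9 genes, and without it the log2 fold changes were 0.31 for HLA-B and 0.21 for HLA-C, with adjusted P values of 2.5e-05 and 0.0014.

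B2M was at 376, 426 and 411 CPM with DMSO and at 368, 327 and 378 CPM with niraparib, and the ranges overlapped. Its log2 fold change was -0.18 (SE 0.06, adjusted P = 0.016, edgeR), and it no longer passed without DMSO replicate 2 (adjusted P = 0.10) or replicate 3 (0.055). The estimate for B2M thus had the opposite sign to those of HLA-B and HLA-C with niraparib, and it was small. In TPM, B2M was at 249 ± 17 with DMSO and 235 ± 14 with niraparib (SD, n = 3). HLA-E was level, at 0.01 on the log2 scale with a 95% interval from -0.11 to 0.12.

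HLA-F was at 4.07, 6.67 and 7.18 CPM with DMSO and at 7.41, 7.46 and 7.53 with niraparib. Its log2 fold change of 0.30 (SE 0.15) did not pass (adjusted P = 0.12, edgeR) and was 0.11 without DMSO replicate 1. The transporter subunits TAP1 (-0.05, 95% interval from -0.16 to 0.06) and TAP2 (-0.18, from -0.37 to 0.01) did not pass either.

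The second comparison set olaparib against the same 3 WT DMSO libraries, which the comparisons of the 2 inhibitors therefore share. No member was called, against 4.04% of all genes. At an adjusted P value below 0.05 alone HLA-E, B2M, NLRC5 and HLA-C rose and none fell, 4 of the 9 against 19% of all genes. At an unadjusted P value below 0.05 HLA-B, HLA-F and TAP1 were added, 7 of the 9 against 30.2%. With DESeq2 no member was called either. In 8 of the 9 genes the olaparib and DMSO libraries did not overlap, against 36.1% of all genes. The median log2 fold change of the 9 was 0.22, beside -0.017 for all genes.

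HLA-E was at 182, 205 and 197 CPM with DMSO and at 248, 236 and 239 CPM with olaparib, with no overlap. Its log2 fold change was 0.31 (SE 0.06, adjusted P = 5.0e-04, edgeR). B2M was at 463, 484 and 465 CPM with olaparib, above every DMSO library, at 0.22 (SE 0.06, adjusted P = 0.0081). NLRC5 was at 7.07, 5.69 and 6.22 CPM with olaparib, above every DMSO library, at 0.57 (SE 0.15, adjusted P = 0.0079). That fold of 1.49 lay just under the limit. Without olaparib replicate 1 the change was 0.48 (adjusted P = 0.068), and without olaparib replicate 2 (0.65) or DMSO replicate 3 (0.65) it was called.

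HLA-C was at 225, 228 and 230 CPM with olaparib, a log2 fold change of 0.17 (SE 0.06, adjusted P = 0.0497, edgeR). Without DMSO replicate 1 it was 0.097 (adjusted P = 0.21). HLA-B was at 592, 597 and 604 CPM, at 0.23 (adjusted P = 0.054, and 0.011 with DESeq2), and at 0.13 without DMSO replicate 1. TAPBP was at 229, 230 and 233 CPM, just below the DMSO libraries, and its change of -0.10 (95% interval from -0.21 to 0.02) did not pass. TAP1 (0.15), HLA-F (0.34) and TAP2 (-0.04) did not pass, with adjusted P values of 0.059, 0.13 and 0.80. HLA-F was at 0.14 without DMSO replicate 1 (adjusted P = 0.46).

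The third comparison set the inhibitors against each other in WT cells at the same dose and time, 1 pair in each genotype, adjusted over all genes. No member was called, against 8.95% of all genes, and DESeq2 called none. At an unadjusted P value below 0.05 there were 6, against 39.8%. At an adjusted P value below 0.05, TAPBP, B2M, HLA-E and TAP1 were lower with niraparib than with olaparib and NLRC5 was higher, 5 of the 9 against 32.2%. The log2 difference was -0.51 for TAPBP (SE 0.06, adjusted P = 2.6e-07, edgeR), -0.40 for B2M (SE 0.06, adjusted P = 9.7e-06), -0.30 for HLA-E (SE 0.06, adjusted P = 2.4e-04) and -0.20 for TAP1 (SE 0.05, adjusted P = 0.0057). In all 4 genes the niraparib libraries lay below the olaparib libraries without overlap. Of the 9, 6 had no overlap, against 44% of all genes. NLRC5 differed by 0.38 (SE 0.14, adjusted P = 0.041, and 0.076 with the replicate block), and by 0.19 without niraparib replicate 2 (adjusted P = 0.34).

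For HLA-B and HLA-C the difference between the inhibitors depended on the test. It was 0.18 for HLA-B (95% interval from 0.014 to 0.35, adjusted P = 0.096 with edgeR and 0.033 with DESeq2) and 0.12 for HLA-C (from -0.0090 to 0.24, adjusted P = 0.16). That of HLA-C passed with only the compared libraries in the fit (adjusted P = 0.023) and without niraparib replicate 2 (0.16 on the log2 scale, adjusted P = 0.035). For HLA-F it was -0.03 with an interval from -0.34 to 0.28, and for TAP2 -0.13 with an interval from -0.32 to 0.06.

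**Figure D2:**
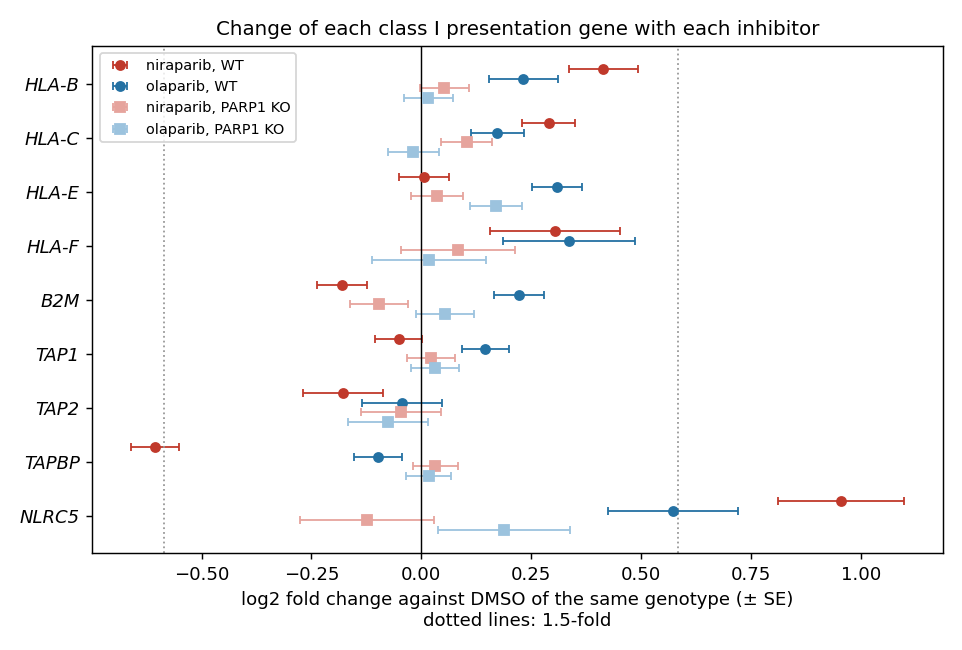
Log2 fold change against DMSO of the same genotype (horizontal axis; points with SE, 3 libraries against 3) for each of the 9 genes. Circles are WT and squares PARP1 KO, red niraparib and blue olaparib, and dotted lines mark 1.5-fold. With niraparib in WT, NLRC5 (0.95) and TAPBP (-0.61) lie outside the lines, and all PARP1 KO points lie within them.

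The next comparisons repeated the treatments in PARP1 KO cells. With niraparib no member was called, against 0.0136% of all 22037 genes, 3 genes in all. None of the 9 had an adjusted or an unadjusted P value below 0.05 (edgeR), against 0.109% and 9.14% of all genes, and DESeq2 called none. The log2 fold changes ran from -0.12 (NLRC5) to 0.10 (HLA-C), with a median of 0.032. All 9 genes overlapped between niraparib and DMSO libraries, and 15.6% of all genes did not. NLRC5 was at 4.74, 4.96 and 4.11 CPM with DMSO and at 3.43, 4.12 and 4.95 CPM with niraparib, and TAPBP at 238, 240 and 235 CPM with DMSO and at 247, 244 and 235 CPM.

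With olaparib in PARP1 KO cells no member was called, against 0.803% of all genes, and none had an adjusted P value below 0.05 (edgeR), against 8.29%. The changes ran from -0.08 (TAP2) to 0.19 (NLRC5). HLA-E was the only member with an unadjusted P value below 0.05, against 21.1% of all genes, at 234, 210 and 197 CPM against 187, 192 and 191 with DMSO. Its log2 fold change was 0.17 (95% interval from 0.05 to 0.29, adjusted P = 0.079), and it was the only member whose groups did not overlap, against 25.9% of all genes. It passed with no filter on low counts (adjusted P = 0.040) and without olaparib replicate 3 (0.22, adjusted P = 0.021), and was at 0.097 without olaparib replicate 1 (adjusted P = 0.33). DESeq2 called no member. Between the inhibitors in PARP1 KO cells no member was called either, against 1.07% of all genes, with differences from -0.31 (NLRC5) to 0.12 (HLA-C). HLA-C, HLA-E and B2M had unadjusted P values below 0.05 there, against 22.1% of all genes, and none passed after adjustment, against 10.0%. All 9 genes overlapped between the inhibitors, and 25% of all genes did not. DESeq2 called none.

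The genotypes were then compared without inhibitor. With DMSO, no member differed between PARP1 KO and WT at an adjusted or unadjusted P value below 0.05 (edgeR), against 1.39% and 13.6% of all 24675 genes, of which 0.146% were called. DESeq2 called no member. The log2 differences, PARP1 KO minus WT, ran from -0.07 (TAP1) to 0.13 (HLA-F), and all 9 genes overlapped between the genotypes, while 19.3% of all genes did not. The 95% interval was from -0.17 to 0.05 for TAPBP and from -0.20 to 0.41 for NLRC5.

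Whether the effect of an inhibitor differed between the genotypes was tested as an interaction, the log2 fold change in PARP1 KO minus that in WT. For niraparib, 2 of the 9 were called, against 8.88% of all genes. TAPBP differed by 0.63 (SE 0.08, adjusted P = 4.4e-08, edgeR) and NLRC5 by -1.08 (SE 0.21, adjusted P = 1.4e-04). At an adjusted P value below 0.05 alone HLA-B was added, 3 of the 9 against 22.9% of all genes. It differed by -0.37 (SE 0.11, adjusted P = 0.014), and by -0.27 without WT DMSO replicate 1 (adjusted P = 0.011). Without WT niraparib replicate 2 the interaction of TAPBP was 0.57 and no longer exceeded 1.5-fold. HLA-C (-0.19, 95% interval from -0.37 to -0.01) did not pass after adjustment (adjusted P = 0.12), nor did B2M (0.08, from -0.12 to 0.27).

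For olaparib no member was called in the interaction, against 0.657% of all genes, and none had an adjusted P value below 0.05 (edgeR), against 2.27%. HLA-C alone had an unadjusted P value below 0.05, against 15.7%, and DESeq2 called none. NLRC5 differed by -0.38 with an interval from -0.81 to 0.05. The rise of NLRC5 with olaparib in WT and its smaller value in PARP1 KO cells were thus not shown to differ.

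**Figure D3:**
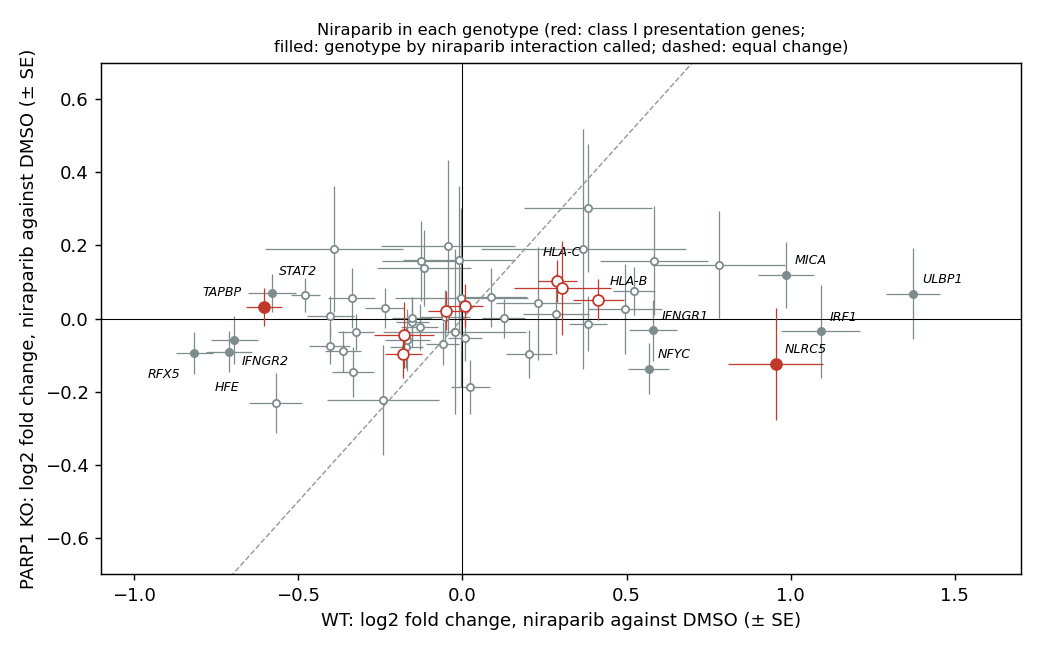
Log2 fold change with niraparib against DMSO in WT (horizontal axis) and in PARP1 KO cells (vertical axis), with SE. Red points are the 9 genes. Grey points are the other genes of the class I pathway and MHC class II lists with a mean of at least 1 CPM. There are 56 points in all, 4 of them class II genes. Filled points were called in the genotype by niraparib interaction. The points spread along the WT axis, from RFX5 at -0.82 to ULBP1 at 1.37, and stay near 0 on the PARP1 KO axis.

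The genes around these 9 were taken as lists. Of 6 peptide loading genes, none was called with niraparib in WT, against 13.8% of all genes, and 3 fell at an adjusted P value below 0.05, against 38.0% passing. Their median log2 fold change was -0.23. These were ERAP2, a peptidase that trims peptides in the endoplasmic reticulum (-0.57, adjusted P = 6.2e-06, edgeR), PDIA3 (-0.40, adjusted P = 2.8e-05) and CALR (-0.40, adjusted P = 2.6e-04). PDIA3 and calreticulin, the product of CALR, work with tapasin in the peptide loading complex. None of the 6 passed with olaparib, against 19% of all genes, at a median of 0.042. CANX, ERAP1 and TAPBPL did not pass with either inhibitor.

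Of the 5 genes of the immunoproteasome and its activator, PSMB8 and PSMB9 rose with both inhibitors in WT. They encode catalytic subunits that interferon induces. PSMB10, the third such subunit, did not pass with niraparib (-0.0094, adjusted P = 0.98, edgeR) or olaparib (-0.24, adjusted P = 0.40). The log2 fold change of PSMB9 was 0.28 for niraparib (adjusted P = 0.029, edgeR) and 0.43 for olaparib (adjusted P = 0.0042). That of PSMB8 was 0.20 (adjusted P = 0.025) and 0.25 (adjusted P = 0.013). The activator subunits PSME1 (-0.36, adjusted P = 1.3e-05) and PSME2 (-0.15, adjusted P = 0.020) fell with niraparib. Of the 3 constitutive catalytic subunits, PSMB6 and PSMB7 fell with both, by -0.17 and -0.33 with niraparib and -0.19 and -0.21 with olaparib. Of the first 5, 4 passed with niraparib, against 38.0% of all genes, and 2 with olaparib, against 19%. Of the 3 constitutive subunits 2 passed with each. None of these 8 was called in WT, against 13.8% of all genes with niraparib and 4.04% with olaparib. The median of the first 5 was -0.0094 with niraparib and -0.053 with olaparib, and that of the 3 constitutive subunits -0.17 and -0.19. In PARP1 KO cells all 3 constitutive subunits fell with olaparib at an adjusted P value below 0.05, against 8.29% of all genes passing, at a median of -0.22. None of the 3 was called, against 0.803%, and none passed with niraparib, against 0.109%.

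NLRC5 does not bind DNA by itself but joins RFX, NF-Y and CREB or ATF1 on the promoter. The 8 genes of these partners had a median log2 fold change of -0.062 with niraparib in WT, with values of both signs. RFX5, the subunit of the RFX complex that binds the X box, was called lower at -0.82 (SE 0.06, adjusted P = 1.6e-10, edgeR). Its level was 157 ± 2.6 CPM in DMSO libraries (SD, n = 3), against 89.0 ± 7.8 CPM for niraparib and 158 ± 5.4 CPM for olaparib. The difference between the inhibitors was called as well (-0.83, adjusted P = 3.1e-10), and so was the interaction (0.72, adjusted P = 1.2e-08). NFYA fell (-0.33, adjusted P = 2.2e-04), while NFYC (0.57, adjusted P = 1.5e-07) and CREB1 (0.38, adjusted P = 1.5e-05) rose. The NFYC interaction was called at -0.71 (adjusted P = 1.8e-07). RFXAP, RFXANK, NFYB and ATF1 did not pass with niraparib. Of the 8, 1 was thus called, against 13.8% of all genes, and 4 passed, against 38.0%. With olaparib none was called, against 4.04%, and NFYA alone passed, against 19% (-0.19, adjusted P = 0.049, and 0.074 with the replicate block).

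Of 13 genes of the interferon signal, 3 were called with niraparib in WT, IRF1 and SOCS1 higher and IFNGR2 lower, against 13.8% of all genes. With olaparib 2 were called, IRF1 and SOCS1, both higher, against 4.04%. The median of the 13 was -0.12 with niraparib and -0.010 with olaparib. IRF1 is a transcription factor that acts on class I genes. Its level was 5.27 ± 0.11 CPM in DMSO libraries (SD, n = 3), against 11.2 ± 1.5 CPM for niraparib and 12.4 ± 1.9 CPM for olaparib. Its log2 fold change was 1.09 with niraparib (SE 0.12, adjusted P = 1.9e-07, edgeR) and 1.24 with olaparib (SE 0.12, adjusted P = 2.6e-07). It was the only listed gene called in both interactions, at -1.13 for niraparib (adjusted P = 4.5e-06) and -0.92 for olaparib (adjusted P = 0.0019). SOCS1, a feedback inhibitor of JAK signalling, was low, at 19 to 22 reads with DMSO, 28 to 102 with niraparib and 22 to 64 with olaparib. For niraparib the log2 fold change of SOCS1 was 1.54 (adjusted P = 0.0013, edgeR). For olaparib it was 1.12 (adjusted P = 0.036, and 0.079 with the replicate block).

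The 2 chains of the interferon gamma receptor went opposite ways with niraparib in WT. IFNGR1 rose by 0.58 on the log2 scale (adjusted P = 1.4e-06, edgeR), and IFNGR2 fell (-0.69, adjusted P = 1.2e-07). JAK1 (-0.48, adjusted P = 1.9e-08), STAT2 (-0.58, adjusted P = 7.4e-06) and IRF2 (-0.34, adjusted P = 6.2e-04) fell. With olaparib IFNGR1 rose (0.34), IFNGR2 (-0.25) and JAK1 (-0.27) fell and IRF2 rose (0.36), all at an adjusted P value below 0.05. Of the 13, 3 passed higher and 4 lower with niraparib in WT, against 38.0% of all genes passing. With olaparib 4 passed higher and 2 lower, against 19%. In PARP1 KO cells none of the 13 was called with either inhibitor, against 0.0136% of all genes with niraparib and 0.803% with olaparib. IRF2 alone of the 13 passed there with olaparib, and rose (0.34, adjusted P = 0.013, edgeR), against 8.29% of all genes passing.

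**Figure D4:**
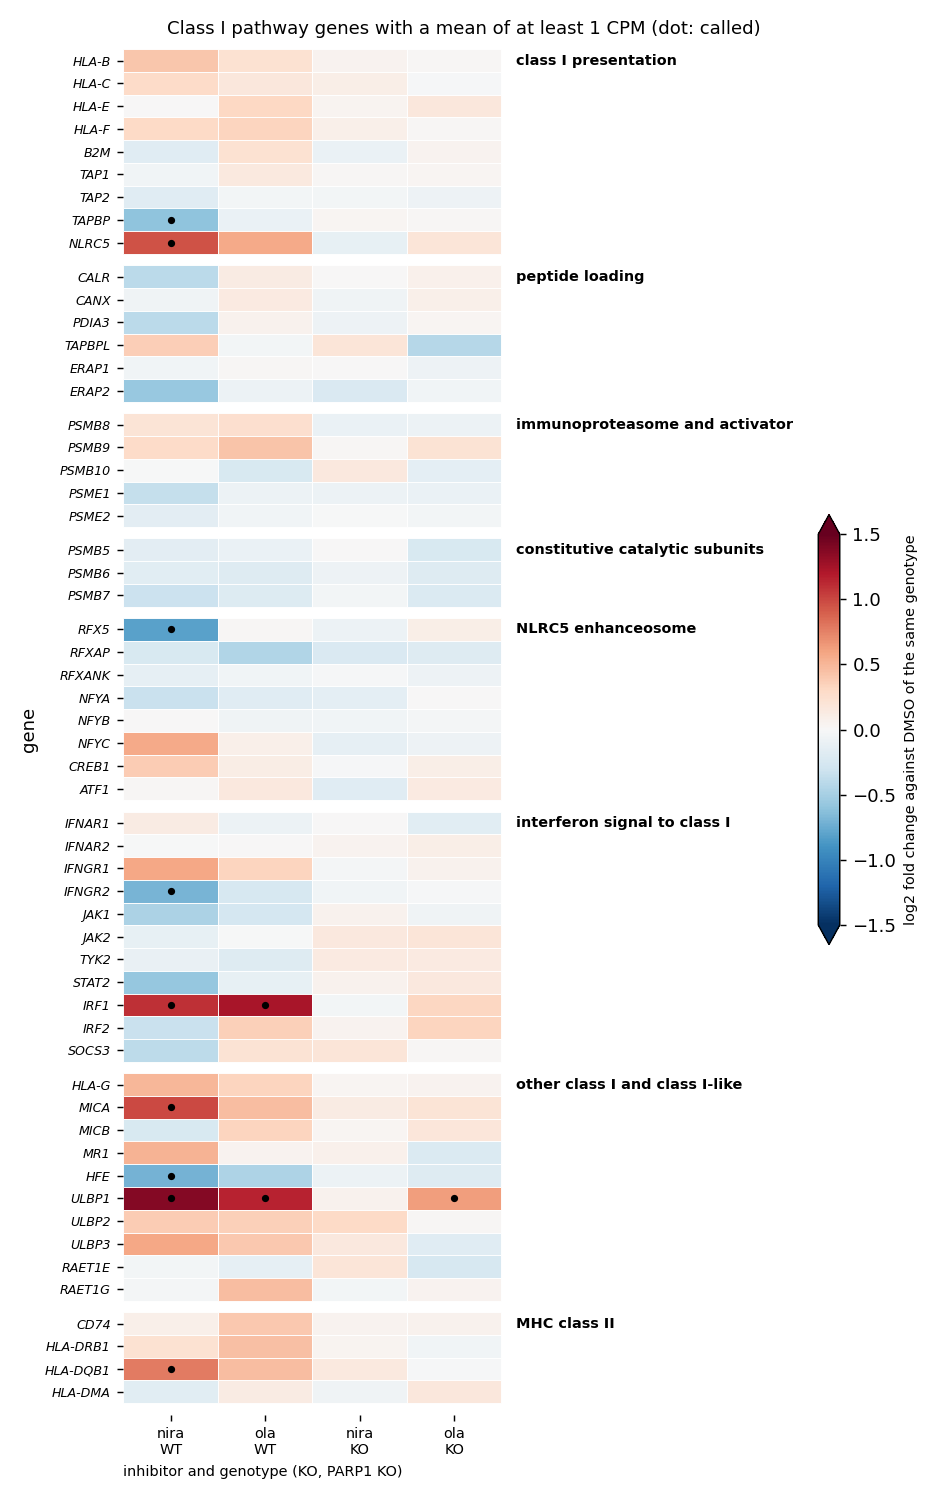
Log2 fold change against DMSO of the same genotype (colour) for 56 genes (rows) with each inhibitor in each genotype (columns). The genes are those of the class I pathway and MHC class II lists with a mean of at least 1 CPM over the 6 groups, 4 of them class II. Dots mark called genes, 9 with niraparib in WT, 2 with olaparib in WT, 0 with niraparib in PARP1 KO and 1 with olaparib in PARP1 KO. The class II gene HLA-DQB1 is among the 9. Over all genes 13.8%, 4.04%, 0.0136% and 0.803% were called in the same order.

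Markers of cell type were read in the same libraries. The summed level of the 8 luminal markers was 12327 to 12852 CPM with DMSO, 8835 to 9756 with niraparib and 9640 to 10057 with olaparib. Of the 8, 7 fell at an adjusted P value below 0.05 with each inhibitor (edgeR), against 38.0% of all genes passing with niraparib and 19% with olaparib. In PARP1 KO cells the sums were 13671 to 14400 with DMSO, 12627 to 12999 with niraparib and 11609 to 12682 with olaparib, and 4 of the 8 fell with olaparib (edgeR, against 8.29% of all genes passing) and none with niraparib. Of 5 leukocyte markers 3 were tested in WT, and 1, ITGAM, was called higher with niraparib, against 13.8% of all genes. ITGAM was at 0.296 CPM or less in every library. The summed leukocyte markers were at 0.224 to 0.567 CPM in WT with DMSO, 0.297 to 0.765 with niraparib and 0.285 to 0.603 with olaparib. Fibroblast markers summed to 102 to 129, 113 to 153 and 96.2 to 108 CPM in the same order. Their part in the class I values was not tested. In bulk RNA, fewer cells of a type and less RNA per cell cannot be told apart.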

How the data were processed

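RNA of 18 T47D libraries was analysed, 3 for each of 2 genotypes and 3 treatments, grouped by the sample labels. The authors deposited raw counts of reads per gene for each library, without normalization: reads were trimmed with Trimmomatic, mapped to GRCh38 with STAR, passed through Picard MarkDuplicates and counted over exons with featureCounts 2.0.0 (reverse strand, primary alignments, Ensembl release 96). Whether marked duplicates were removed is not clear from the sources used here. A read with several alignments counts at its primary one, so reads of similar class I genes may be misplaced.

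From these counts, genes whose counts summed to more than 10 over the fitted libraries entered the test of edgeR 4.0.16 under R 4.3.3 (TMM, robust quasi-likelihood F test, Benjamini-Hochberg over all genes). WT and PARP1 KO were fitted on 9 libraries each, and the genotype contrast and interactions on all 18. The standard error is the absolute log2 fold change over the square root of F, and 95% intervals use the t distribution of the fit. CPM are counts-per-million of the TMM-scaled library size. TPM use the exon lengths in the files. Library totals were 28890837 to 52251288, and biological coefficients of variation 7.05% (WT), 7.42% (PARP1 KO) and 7.24% (all).

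The 9 genes, the lists and the tests were chosen with earlier results of these data known, and no test over a list is given. The rule named the 9, PARP1, listed genes that were called and the 5 genes nearest in profile. Other listed genes, whether or not they passed the adjusted P value, were named after their values were seen, and markers were named to describe the cells. No 2 libraries of a group looked like 1 library deposited again: the chi-square over genes was 3.13 to 19.0 times the number of genes. Alternatives were RLE size factors, filterByExpr or no filter, DESeq2 1.42.0, a block for the replicate number, other sets of libraries, other thresholds and each library left out. Some genes are not reported here.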

Additional observations from a re-analysis of the deposited data

Results flagged for a closer look

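The effect of niraparib differed between WT and PARP1 KO cells, by the test of the interaction itself (PARP1 KO minus WT on the log2 scale, edgeR), for 3 of the 9 genes: TAPBP by 0.63, NLRC5 by -1.08 and HLA-B by -0.37, the last below 1.5-fold. At this adjusted P value 22.9% of all genes passed. In TAPBP and NLRC5, the 3 WT niraparib libraries did not overlap with the WT DMSO libraries, whereas the PARP1 KO libraries overlapped. Over all genes, 46.7% did not overlap in that WT comparison and 15.6% in the PARP1 KO comparison. Without WT niraparib replicate 2 the TAPBP interaction was 0.57 and no longer exceeded 1.5-fold.

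Among the listed pathway genes the same interaction was called for RFX5 (0.72, adjusted P = 1.2e-08), NFYC (-0.71, adjusted P = 1.8e-07), IFNGR1 (-0.62, adjusted P = 3.5e-05), IFNGR2 (0.63, adjusted P = 8.0e-06), STAT2 (0.64, adjusted P = 7.9e-07), IRF1 (-1.13, adjusted P = 4.5e-06) and SOCS1 (-1.52, adjusted P = 0.016), all with edgeR, against 8.88% of all genes called. Among class I-like genes it was called for MICA (-0.87, adjusted P = 9.0e-07), HFE (0.62, adjusted P = 1.5e-06) and ULBP1 (-1.31, adjusted P = 1.3e-08). For olaparib it was called for IRF1 alone among the listed genes (-0.92, adjusted P = 0.0019), against 0.657% of all genes called. In each of these genes the value in PARP1 KO cells was the nearer to 0. That is no separate result, since the genes were picked by the interaction. Over all genes, niraparib had 3 called in PARP1 KO and 3102 in WT.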

How the results depend on the processing

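The number of the 9 genes called with niraparib in WT was 2 under RLE size factors, filterByExpr, no filter, DESeq2, the replicate block and other sets of libraries. It was 5 by adjusted P value alone, 0 at an absolute log2 fold change over 1.5, and 1 to 2 with a library left out, TAPBP being lost without WT niraparib replicate 2 or WT DMSO replicate 2. With olaparib in WT the count of 0 became 4 by adjusted P value alone and 0 to 1 with a library left out. Between the inhibitors in WT it became 5 by adjusted P value alone. In the niraparib interaction the count of 2 became 0 over a log2 fold change of 1.5 and 1 to 2 with a library left out. In the other 5 comparisons the count stayed at 0 under every alternative run. Over all genes, the count called with niraparib in PARP1 KO was 3, and was 24 with no filter, 8 with DESeq2 and 6 with all 18 libraries in the fit. With no filter the genotype contrast called 102 in place of 36 and the olaparib interaction 346 in place of 162. Of the 64 values of the 9 genes that missed an adjusted P value of 0.05, 7 passed it under at least 1 alternative that kept all libraries, HLA-B with olaparib in WT (adjusted P = 0.011 with DESeq2) among them. Of the 17 that passed, 2 were lost under one: HLA-C with olaparib in WT (0.050 to 0.060 under RLE, filterByExpr, the block and all 18 libraries in the fit) and NLRC5 between the inhibitors in WT (0.076 under the block). Genes at the level of SOCS1 rest on few reads.

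The replicate numbers did not pair the libraries. Same-numbered libraries of a genotype had correlated deviations from -0.56 to 0.39 in WT, with 3 of 9 over 0.1, and from -0.52 to 0.58 in PARP1 KO, with 2 of 9 over 0.1, and 5 of 18 libraries correlated best with their own number. With the replicate block the counts over all genes were 2920 for niraparib and 812 for olaparib in WT against 3102 and 907, and the counts of the 9 genes were as before.

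Leaving out 1 library at a time turned the sign of 23 log2 values of the 9 genes, none of which had an adjusted P value below 0.05 with all libraries. For niraparib in WT, the range was HLA-E from -0.042 to 0.063. For olaparib in WT, the range was TAP2 from -0.13 to 0.0050. Between the inhibitors in WT, the range was HLA-F from -0.059 to 0.012. For niraparib in PARP1 KO, the ranges were TAP1 from -0.0066 to 0.067 and TAP2 from -0.11 to 1.8e-05. For olaparib in PARP1 KO, the ranges were HLA-B from -0.040 to 0.058, HLA-C from -0.085 to 0.028, HLA-F from -0.063 to 0.10, B2M from -0.0012 to 0.13, TAP1 from -0.011 to 0.066 and TAPBP from -0.035 to 0.070. Between the inhibitors in PARP1 KO, the ranges were HLA-B from -0.0068 to 0.10, HLA-F from -4.2e-04 to 0.19, TAP1 from -0.044 to 0.045, TAP2 from -0.014 to 0.089 and TAPBP from -0.038 to 0.067. Between the genotypes with DMSO, the ranges were HLA-B from -0.013 to 0.14, HLA-C from -4.2e-04 to 0.13, HLA-E from -0.084 to 0.0032, HLA-F from -0.062 to 0.28 and B2M from -0.078 to 0.027. In the niraparib interaction, the range was HLA-E from -0.042 to 0.076. In the olaparib interaction, the range was TAP2 from -0.086 to 0.061.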

Other observations

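Of the class I-like ligands of the natural killer receptor NKG2D, ULBP1 and MICA were called with niraparib in WT. ULBP1 was at 8.75 ± 0.96 CPM with DMSO in WT (SD, n = 3), 22.8 ± 0.38 under niraparib and 19.5 ± 0.66 under olaparib, and both changes were called (log2 fold changes of 1.37 and 1.15, adjusted P = 1.9e-11 and 4.7e-09, edgeR). It was also called with olaparib in PARP1 KO cells (0.63, adjusted P = 0.0024). MICA was higher with niraparib in WT (0.99, adjusted P = 4.5e-09) and rose with olaparib (0.46, adjusted P = 5.5e-04). MICB fell with niraparib (-0.24, adjusted P = 0.0026) and rose with olaparib (0.33, adjusted P = 3.5e-04). HFE, a class I-like gene of iron control, was called lower with niraparib (-0.71, adjusted P = 1.1e-07) and fell with olaparib (-0.46, adjusted P = 1.1e-04). Of the 11 class I and class I-like genes of this list, 3 were called higher and 1 lower with niraparib in WT, at a median log2 fold change of 0.49. Over all genes 13.8% were called in that comparison. The third called higher, CD1D, had 0 reads in every WT DMSO library and 3 to 8 with niraparib.

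Of 10 MHC class II genes, 9 were tested in WT and 3 were called higher with niraparib (edgeR), against 13.8% of all genes called, and 2 of the 3 rest on few reads. HLA-DQB1 changed by 0.78 (adjusted P = 0.015), while HLA-DRA had 3 to 8 reads under DMSO and 26 to 33 under niraparib, and HLA-DPA1 1 to 7 and 15 to 20. With olaparib none of the 9 was called, against 4.04% of all genes, and 2 passed, against 19%. CD74 (0.40, adjusted P = 0.021) and HLA-DRB1 (0.45, adjusted P = 0.020) rose. CD74 was at 23.9 to 31.6 CPM with DMSO and at 36.9 to 40.3 with olaparib. HLA-DRB1 was at 6.33 to 8.90 and at 10.6 to 11.4 CPM in the same order. In PARP1 KO cells, CIITA, the class II transactivator, was called lower with niraparib than with olaparib at 3 to 6 against 14 to 19 reads (-1.69, adjusted P = 0.048, and 0.072 with the replicate block), against 1.07% of all genes called.

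Over all 18 libraries, the genes whose level followed the mean standardized profile of the 9 most closely, among 11010 genes, were CD74 (Pearson's r = 0.962), APOBEC3B (0.913), HLA-DRB1 and GATM (both 0.912) and CENPQ (0.900). That profile followed HLA-E (0.893) and TAP1 (0.865) more closely than NLRC5 (0.225), TAPBP (0.034) or TAP2 (-0.13), so it does not stand for the 2 called genes. The libraries share treatments and the line, and no test was made.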
